A study of Mus musculus with 20 samples.

Results

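The genes described here encode subunits of complexes I, III and IV of the mitochondrial respiratory chain, together with their close relatives and assembly factors. They were taken by symbol: every gene of the platform annotation whose symbol starts with Nduf, Uqcr, Cox4, Cox5, Cox6, Cox7 or Cox8 and that has a probe set with exactly 1 symbol, which gave 69 of 18193 genes. The rule itself uses names and levels and no difference between groups, although it was set with earlier results of these data known. Of the 69, 34 are complex I subunits, 8 complex III subunits and 16 complex IV subunits, and the other 11 are 8 complex I assembly factors (Ndufaf), Ndufa4 (now counted with complex IV), Ndufa4l2 and Cox7a2l. Each gene is represented by its probe set of highest mean over 20 arrays. The mean had to exceed 6.93 on the log2 scale, the median of all probe sets, and 66 members passed. Cox4i2 (mean 6.86), Cox7b2 (6.11) and Ndufb4 (6.08) did not and were not tested.

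Heart ventricle of female C57BL/6 mice was profiled. All groups, the controls included, had lost their ovaries, the main source of circulating estrogen, at 8 weeks of age. Each group had 5 samples, treated for 4 weeks through an implanted osmotic minipump. Placebo samples (titled OVX) had placebo solution, estradiol samples had 17β-estradiol, which activates both classical estrogen receptors, and 16α-LE2 samples had a compound named in the labels as an estrogen receptor α agonist. The titles of the last group say beta while its treatment label says control solution, so it is called the beta-titled group and kept apart. No dose is given, so the agonists share a duration but not a known common dose. Nothing in the labels says that the samples of a group are separate animals, and p-values measure the spread between these samples.

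Complex I takes electrons from NADH and passes them to ubiquinone, complex III passes them on to cytochrome c, and complex IV hands them to oxygen, and each of them pumps protons that drive ATP synthase. Heart muscle, which works almost without pause on oxidative metabolism, is among the tissues richest in these complexes. Complex IV is also the complex whose nuclear subunits come in tissue isoforms, with Cox6a2, Cox7a1 and Cox8b typical of heart and skeletal muscle and Cox6a1, Cox7a2 and Cox8a found widely.

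The members stood near the top of the measured range. The median of their mean levels was 13.1 log2 units against 8.14 for all 12082 genes tested, and 51 of the 66 had a mean of 12 or more, as did 322 genes in all. The complex I subunits ran from 11.3 (Ndufb1) to 13.8 (Ndufb9), those of complex III from 13.1 (Uqcrc1) to 14.5 (Uqcrb), and those of complex IV from 7.44 (Cox6b2) to 14.2 (Cox5b). A level is the signal of 1 probe set, so these figures place genes on the scale and do not rank their transcripts. The defining genes of ventricular muscle were high as labelled (mean 14.7 for Myl2, the ventricular myosin light chain), while atrial markers varied between arrays. The mean level of the 5 atrial markers on the array, tested or not, ran from 8.16 to 9.88 with 16α-LE2 and from 8.82 to 10.64 with estradiol. It ran from 8.48 to 9.87 in the beta-titled group and from 8.72 to 9.62 with placebo. All 4 tested atrial markers were above placebo with estradiol (median 0.34, none called), and their part in the estradiol values was not tested. Array medians were 6.89 to 7.02, and the standard deviation (SD) of the values on an array ran from 1.29 to 1.48. Estradiol replicate 33 stood apart, with Spearman correlations of 0.922 to 0.941 with the others, which correlated with each other at 0.978 to 0.992.

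With 16α-LE2, which addresses receptor α, the respiratory chain genes sat slightly below placebo on most probe sets, but no member passed the test. Of 66 members, 60 had a negative log2 change, with a median of −0.070 against −0.028 for all genes tested, and 59.7% of all genes were negative. None of the 66 passed over all genes (limma, Benjamini-Hochberg adjusted p under 0.05), where 0.223% of all genes did, and 4 members had an unadjusted p under 0.05. Of those 4, 3 were lower, where 7.8% of all genes were, and 1 was higher, where 1.21% of all genes were. The median half-width of the 95% interval of a member's change was 0.19 log2 units, so changes of that size cannot be told from 0 here. In whole ventricle, fewer cells of a type and less RNA per cell cannot be told apart.

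By complex, the median change with 16α-LE2 was −0.066 over 33 tested subunits of complex I, of which 30 were negative, −0.081 over 8 of complex III, all negative, and −0.053 over 14 of complex IV, of which 12 were negative. After quantile normalization, which gives all arrays the same distribution of values, these medians were 0.012, −0.0054 and 0.00053, and 30 members were negative and 36 positive. Single placebo arrays moved them too: without placebo replicate 31 they were −0.016, −0.047 and −0.019, and without placebo replicate 36 they were −0.110, −0.132 and −0.090. The difference between complexes was not tested, since the lists were chosen with earlier results known.

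**Figure D1:**
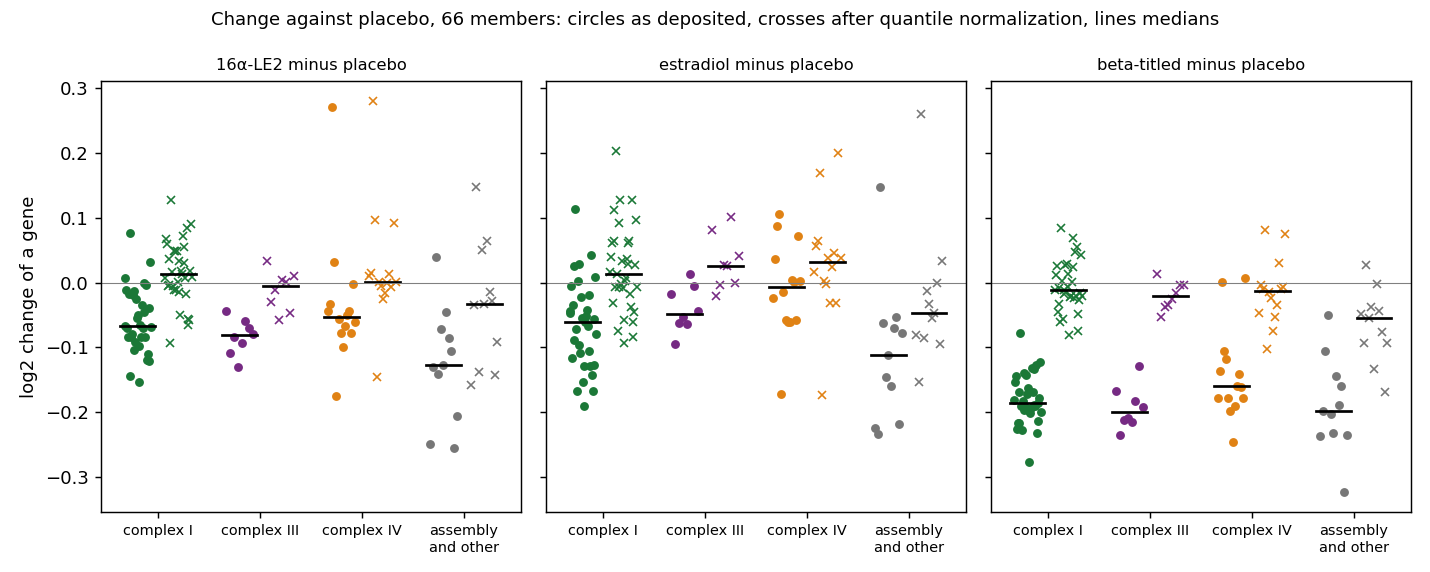
Log2 change against placebo (vertical axis) of the 66 tested members, 1 point per gene, by complex, in 3 comparisons. Circles are values as deposited, crosses are values after quantile normalization and lines are medians. With 16α-LE2 the deposited medians of complexes I, III and IV lie at −0.066, −0.081 and −0.053, and in the beta-titled group at −0.186, −0.200 and −0.160, while the medians of those complexes after quantile normalization lie near 0.

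Among the core subunits of complex I, which carry its redox centres and are shared with bacteria, none stood apart with 16α-LE2. Ndufs1, the large iron-sulfur subunit, was at 13.13, 13.05, 13.04, 12.82 and 12.56 in placebo replicates 31, 32, 33, 34 and 36, and at 12.67, 12.87, 12.80, 12.98 and 12.94 in 16α-LE2 replicates 29, 30, 32, 33 and 34. The groups overlapped throughout, and the placebo arrays spread more widely than the treated ones. Its change was −0.071 ± 0.103 (SE; limma adjusted p = 0.908). Ndufv1, the flavoprotein that binds NADH, had a change of −0.014 ± 0.089 (SE; limma adjusted p = 0.987). The 6 tested core subunits had a median of −0.019 and the 27 tested accessory subunits, which surround the core, one of −0.070, and both turned positive after quantile normalization (0.042 and 0.0075).

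The assembly factors of complex I, which help build the enzyme and are not part of the finished complex, included 2 of the 3 members that were lower at an unadjusted p under 0.05 with 16α-LE2. Ndufaf4, a factor of the early membrane-bound intermediate, stood at 10.51, 10.36, 10.56, 10.40 and 10.52 in placebo replicates 31, 32, 33, 34 and 36, and at 9.94, 10.07, 10.43, 10.33 and 10.31 in 16α-LE2 replicates 29, 30, 32, 33 and 34. Treated replicate 32 lay above placebo replicates 32 and 34, and treated replicates 29 and 30 were lowest. The change was −0.26 ± 0.11 (SE), 1.19-fold lower, and did not pass (limma adjusted p = 0.493). The other probe set of this gene gave −0.32. Ndufaf1, a chaperone of a later step, was at 9.98, 9.75, 10.04, 9.85 and 9.77 in the same placebo arrays and at 9.72, 9.58, 9.63, 9.75 and 9.67 in the same treated arrays. These 5 treated values all lay below the 5 placebo values, by a margin as narrow as that between 9.749 in treated replicate 33 and 9.754 in placebo replicate 32. It was the 1 member of 66 whose groups did not overlap (1.52%), where 2.7% of all genes were lower without overlap and 0.579% higher, and its change of −0.21 ± 0.09 (SE) did not pass (limma adjusted p = 0.511). The 8 assembly factors had a median of −0.117, with 7 negative, and Ndufaf3 at 0.040 was the exception. After quantile normalization their median was −0.031, with 5 negative, and Ndufaf2 and Ndufaf8 were positive as well. After quantile normalization the changes of Ndufaf4 and Ndufaf1 were −0.143 and −0.092.

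Cox7a2l, a factor that joins complexes III and IV into supercomplexes, was the remaining member of the 3 lower ones. The placebo values of Cox7a2l were 12.09, 12.14, 12.35, 12.08 and 11.99 in replicates 31, 32, 33, 34 and 36, and those with 16α-LE2 were 11.76, 11.91, 12.04, 11.86 and 11.84 in replicates 29, 30, 32, 33 and 34. Only treated replicate 32 reached into the placebo range. The change was −0.25 ± 0.11 (SE; limma adjusted p = 0.513), and the other 2 probe sets gave −0.23 and −0.25. After quantile normalization it was −0.158.

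All 8 complex III members, which are the Uqcr genes and so leave out Cyc1, had a negative change with 16α-LE2 in the deposited values. Of these, 4 were positive after quantile normalization and 6 with cyclic loess. Uqcrfs1, the Rieske iron-sulfur protein that hands electrons on within the complex, had a change of −0.131 ± 0.083 (SE; limma adjusted p = 0.686), the largest of the 8 on the probe sets used. The range of the other 7 reached up to −0.044, and Uqcrc1, a core subunit, was at −0.060.

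Complex IV held the 1 member that was higher at an unadjusted p under 0.05. Cox6b2, an isoform of subunit VIb known mainly from testis, was at 7.32, 7.47, 7.32, 7.32 and 7.34 in placebo replicates 31, 32, 33, 34 and 36, and at 7.82, 7.58, 7.70, 7.60 and 7.44 in 16α-LE2 replicates 29, 30, 32, 33 and 34. Treated replicate 34 lay below placebo replicate 32, and the other treated arrays lay above all placebo arrays. The change was 0.27 ± 0.07 (SE), 1.21-fold, in 5 of 5 treated arrays above the placebo mean, and it did not pass (limma adjusted p = 0.0865). It passed without estradiol replicate 33 (limma adjusted p = 0.0427), an array outside this comparison that enters through the shared spread, and with array weights (0.0175) or placebo and beta-titled arrays pooled (0.0214), and over the settings that tested it the limma adjusted p ran from 0.0175 to 0.335. After quantile normalization the change was 0.28 (limma adjusted p = 0.0761). Its mean level of 7.44 lies at percentile 49.7 of all genes on the array, it has 1 probe set, and no detection call was used, so its signal over background is not known.

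**Figure D2:**
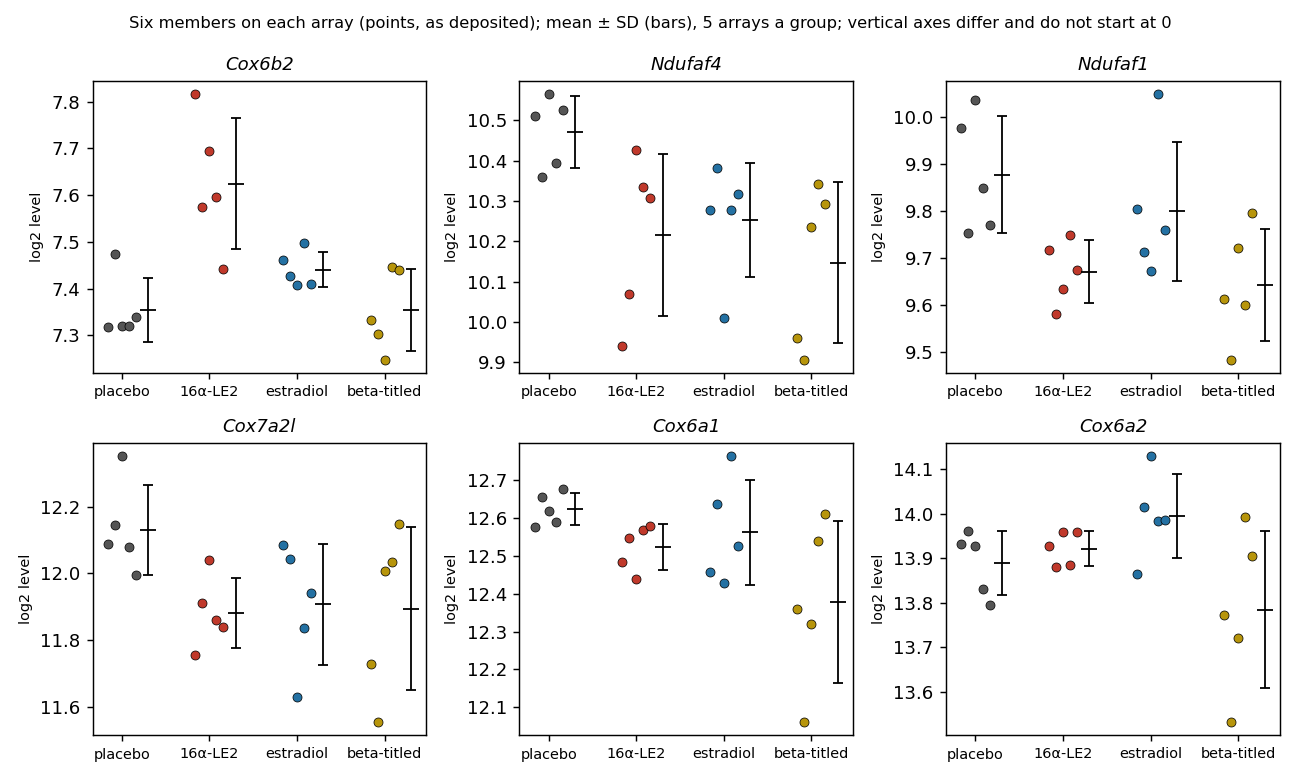
Log2 level as deposited (vertical axis; the axes differ and do not start at 0) of Cox6b2, Ndufaf4, Ndufaf1, Cox7a2l, Cox6a1 and Cox6a2 on each of the 20 arrays, by group, with the mean and SD of 5 arrays. Of 5 arrays with 16α-LE2, 4 lie above all placebo arrays for Cox6b2, and all 5 lie below them for Ndufaf1.

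The promoters of 3 of these genes are shown because they lead the lower members (Ndufaf4), hold matches to both NRF1 and GABPA (Cox6a1) or lead in the other direction (Cox6b2). Sequences are from RefSeq (GRCm38.p6), 250 bases before to 50 after the start, 5′ to 3′ on the gene's strand, with motif matches in capitals: Ndufaf4 at chr4:24897833-24898132 (plus strand), Cox6a1 at chr5:115348909-115349208 (minus strand) and Cox6b2 at chr7:4753045-4753344 (minus strand).
Ndufaf4: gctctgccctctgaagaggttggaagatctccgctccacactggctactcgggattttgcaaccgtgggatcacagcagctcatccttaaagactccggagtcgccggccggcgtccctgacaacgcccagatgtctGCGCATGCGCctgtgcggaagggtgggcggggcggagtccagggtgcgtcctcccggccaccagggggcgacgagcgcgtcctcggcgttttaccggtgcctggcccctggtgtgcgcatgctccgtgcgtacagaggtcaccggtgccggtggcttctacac
Cox6a1: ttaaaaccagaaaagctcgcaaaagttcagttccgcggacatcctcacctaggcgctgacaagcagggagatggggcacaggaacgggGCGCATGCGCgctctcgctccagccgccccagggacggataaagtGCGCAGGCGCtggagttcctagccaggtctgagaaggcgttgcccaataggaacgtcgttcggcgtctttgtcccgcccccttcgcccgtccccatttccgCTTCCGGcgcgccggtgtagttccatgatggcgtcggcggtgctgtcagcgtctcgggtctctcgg
Cox6b2: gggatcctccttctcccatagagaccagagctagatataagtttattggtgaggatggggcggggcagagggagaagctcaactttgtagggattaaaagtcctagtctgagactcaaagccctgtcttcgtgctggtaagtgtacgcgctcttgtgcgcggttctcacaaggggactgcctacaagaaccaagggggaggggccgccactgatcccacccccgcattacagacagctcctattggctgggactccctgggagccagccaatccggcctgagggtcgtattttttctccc
The motifs searched on both strands were those of the factors NRF1 and GABPA (CCGGAAG), which are known regulators of respiratory chain genes. The full palindromic estrogen response element and the element of estrogen-related receptors (TCAAGGTCA) were searched as well. For NRF1 the pattern was its core with any base allowed at 1 position, so a match need not be a palindrome. Of 56 members matched to a promoter, 9 held the NRF1 motif (16.1%, against 5.19% of 27025 genes) and 11 the GABPA motif (19.6%, against 9.93%). None held the estrogen response element (0.074% of all genes) or the element of estrogen-related receptors (0.466%). The 3 promoters printed hold 1 NRF1 match in Ndufaf4, 3 matches to NRF1 and GABPA in Cox6a1 and 0 in Cox6b2, and no matches of different motifs overlap. These are matches of letters in a window of 300 bases and were not tested against expression.

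The muscle isoforms of complex IV were set beside their widely expressed partners with 16α-LE2, without a test of the difference between partners. The log2 change was −0.078 for both Cox7a1 and Cox7a2, −0.056 for Cox8b and −0.0020 for Cox8a, and 0.032 for Cox6a2 against −0.100 for Cox6a1, with standard errors of 0.075 to 0.091. Other probe sets gave −0.0036 for Cox6a2, −0.136 for Cox6a1, −0.099 for Cox7a2, and −0.016 and 0.038 for Cox8a. After quantile normalization Cox8a was at 0.092 and Cox8b at 0.00085, and Cox6a2 at 0.097 and Cox6a1 at −0.025. Cox6a1 was at 12.58, 12.66, 12.62, 12.59 and 12.68 in placebo replicates 31, 32, 33, 34 and 36 and at 12.48, 12.55, 12.44, 12.57 and 12.58 with 16α-LE2 in replicates 29, 30, 32, 33 and 34. The groups met at 12.58, in treated replicate 34 and placebo replicate 31. Cox4i1 and Cox5a, subunits without a muscle form, both had a change of −0.044 on the probe sets used. Other probe sets of Cox5a gave −0.163 and −0.063. Cox4i2, the isoform of Cox4i1 known from lung and low oxygen, Cox6b2 and Cox8c, a testis isoform, lay low on the scale, Cox8c at a mean of 8.34. Cox7c, at a mean of 7.70 on the probe set used, was at −0.175 ± 0.085 (SE; limma adjusted p = 0.56), while another probe set of it gave 0.027. Ndufa4, a complex IV subunit that carries the name of complex I, had a change of −0.085, and its hypoxia-induced relative Ndufa4l2 one of −0.142 ± 0.084 (SE; limma adjusted p = 0.656).

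The natural agonist, which addresses both receptors, was compared with the same placebo arrays, and here too no member passed. Of 66 members, 51 were negative, with a median of −0.058 against −0.028 for all genes, of which 57.1% were negative. None passed (limma, smallest adjusted p = 0.499 among members), where 0% of all genes did, and 0 had an unadjusted p under 0.05, where 7.23% of all genes were lower and 2.39% higher at that p. The median was −0.061 for complex I, −0.048 for complex III and −0.0064 for complex IV, in which 7 subunits were positive and 7 negative. After quantile normalization the medians were 0.014, 0.026 and 0.031, and without placebo replicate 31 they were −0.022, −0.0046 and 0.014. The members of smallest p were Cox7a2l (−0.22 ± 0.11), Cox7c (−0.17 ± 0.09), Ndufaf4 (−0.22 ± 0.11) and Ndufaf6, another assembly factor (−0.23 ± 0.13), each with SE and a limma adjusted p of 0.499.

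Single arrays shaped these estradiol values. For Cox7a2l the arrays stood at 12.09, 12.04, 11.63, 11.84 and 11.94 in replicates 29, 30, 33, 34 and 35, with replicate 33 lowest. Without that array the change was −0.154, and those of Ndufaf4 and Ndufaf6 were −0.157 and −0.125. Ndufs4, an accessory subunit whose loss in mice gives a model of Leigh syndrome, stood at 12.70, 12.67, 12.23, 12.30 and 12.44 with estradiol in the same order and at 12.88, 12.69, 12.85, 12.46 and 12.40 in placebo replicates 31, 32, 33, 34 and 36. Both groups were split, and its change of −0.190 ± 0.117 (SE) did not pass (limma adjusted p = 0.504).

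On the probe sets used, Cox6a2 had the largest positive change of a subunit in complex IV with estradiol. Its values were 13.86, 14.02, 14.13, 13.98 and 13.99 in estradiol replicates 29, 30, 33, 34 and 35, against 13.93, 13.96, 13.93, 13.83 and 13.80 in placebo replicates 31, 32, 33, 34 and 36. All but estradiol replicate 29 lay above all placebo arrays, and the change was 0.106 ± 0.075 (SE; limma adjusted p = 0.525). The other probe set of Cox6a2 gave 0.056. Ndufaf3, an assembly partner of Ndufaf4, had a change of 0.148 ± 0.102 (SE; limma adjusted p = 0.521).

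A direct comparison of both agonists covered the same 66 genes. No member passed between 16α-LE2 and estradiol (limma, smallest adjusted p = 0.775), where 0.0166% of all genes were called, and 45 were lower with 16α-LE2, as were 56.3% of all genes. The unadjusted p was under 0.05 for 1 member, where 2.27% of all genes were higher and 2.92% lower at that p. That gene was Cox6b2, 0.18 log2 units higher with 16α-LE2, with a 95% interval from 0.048 to 0.32. Its estradiol arrays stood at 7.46, 7.43, 7.41, 7.50 and 7.41 in replicates 29, 30, 33, 34 and 35, and 4 of 5 arrays with 16α-LE2 lay above all of them. For Ndufaf1 the difference was −0.129, with an interval from −0.32 to 0.060. For Ndufs1 it was 0.045 ± 0.103 (SE), and for Cox6a2 −0.074 ± 0.075. These intervals include differences of either sign for Ndufaf1, and equal action was not shown. Medians were 0.00017 for complex I, −0.033 for complex III and −0.041 for complex IV, and without 16α-LE2 replicate 29 they were 0.039, 0.0075 and −0.013. Both agonists were compared with the same placebo arrays, so their changes against placebo are not independent.

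The beta-titled group against placebo gave the widest offset of the respiratory chain genes. Of 66 members, 64 were negative, with a median of −0.182 against −0.039 for all genes, of which 62.6% were negative. None passed (limma, smallest adjusted p = 0.707 among members), where 0% of all genes did, but 27 members had an unadjusted p under 0.05, all lower, where 5.33% of all genes were lower and 0.372% higher at that p. The medians were −0.186 for complex I (33 of 33 negative), −0.200 for complex III (8 of 8) and −0.160 for complex IV (12 of 14). The 2 positive members were Cox6b2 and Cox8c, both low on the scale. Ndufaf4 was again lowest, at 9.96, 9.91, 10.24, 10.34 and 10.29 in beta-titled replicates 31, 32, 33, 35 and 36, all below the 5 placebo values. It was the 1 member whose groups did not overlap, where 0.406% of all genes were lower without overlap and 0.439% higher, and its change was −0.32 ± 0.11 (SE; limma adjusted p = 0.707). Ndufa9, an accessory subunit, was at −0.216 ± 0.076 and Cox6a1 at −0.245 ± 0.091 (SE; limma adjusted p = 0.707 for both).

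Quantile normalization took this offset away. It gives every array the same values at the top ranks, where most members lie. An offset shared by genes there is removed whatever its source, and that source was not tested. The median over the 66 members was then −0.017, with 48 negative, and 1 member had an unadjusted p under 0.05. The medians of complexes I, III and IV were −0.012, −0.021 and −0.012. Ndufaf4 kept a change of −0.168, while Ndufa9 was at −0.033 and Cox6a1 at −0.075. Without beta-titled replicates 31 and 32 and estradiol replicate 33, the 3 arrays of narrowest spread, the members' median was −0.071 with the deposited values, and 0 members had an unadjusted p under 0.05. Beta-titled replicates 31 and 32 also had the lowest member levels of all arrays. Leaving them out takes the low values out and leaves fewer arrays. That setting was added after seeing the data.

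**Figure D3:**
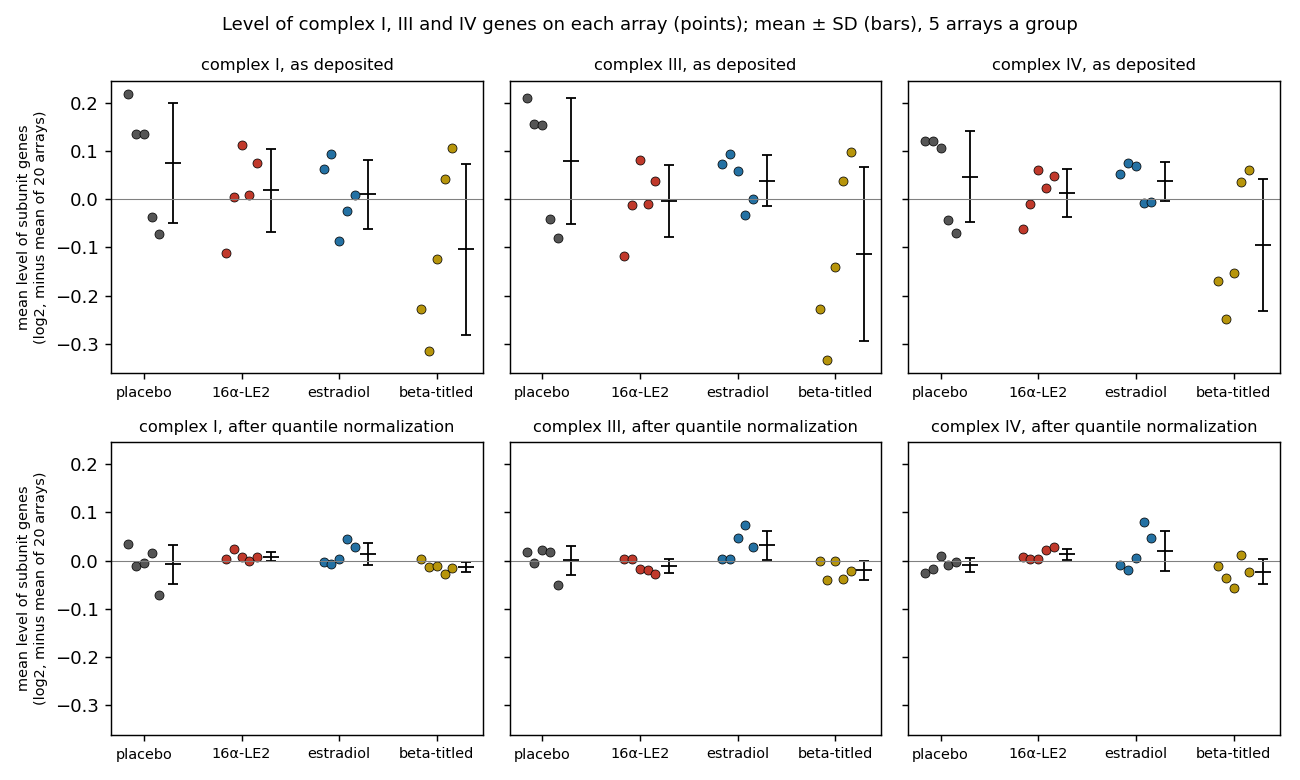
Mean level of the tested subunit genes of complexes I, III and IV on each array (vertical axis, log2, each gene minus its mean over 20 arrays), by group, with mean and SD of 5 arrays. The upper row is as deposited, where beta-titled arrays run from −0.315 to 0.105 for complex I and placebo arrays from −0.072 to 0.217, and the lower row is after quantile normalization, where the same groups run from −0.029 to 0.0026 and from −0.072 to 0.034.

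The levels of the 3 complexes were then followed array by array. The mean level of complex I, each gene taken relative to its mean over 20 arrays, was −0.229, −0.315, −0.124, 0.042 and 0.105 in beta-titled replicates 31, 32, 33, 35 and 36, that of complex III was −0.228, −0.334, −0.140, 0.038 and 0.097, and that of complex IV was −0.170, −0.248, −0.153, 0.036 and 0.061. In placebo replicates 31, 32, 33, 34 and 36 complex I stood at 0.217, 0.135, 0.135, −0.037 and −0.072. Replicates 31, 32 and 33 were low in one of these groups and high in the other, and for complex I the other beta-titled arrays, replicates 35 and 36, lay above placebo replicates 34 and 36. Beta-titled replicate 32 was the lowest of 20 arrays for 47 of 66 members, and placebo replicate 31 the highest for 34. The gap between the highest and lowest complex on an array was at most 0.097 except on estradiol replicate 33, where complex I stood at −0.088, complex III at 0.057 and complex IV at 0.069. After quantile normalization that array had 0.0036, 0.048 and 0.0045.

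The spread of values on an array moved with these levels. The members' mean level was lowest, at −0.303 and −0.210, on beta-titled replicates 32 and 31, whose SDs of 1.29 and 1.32 were the narrowest of the 20 arrays. It was highest on placebo replicates 31, 33 and 32 (0.189, 0.149 and 0.126), with SDs of 1.45, 1.48 and 1.44. The mean SD of a group was highest in placebo (1.44), followed by estradiol (1.40) and 16α-LE2 (1.39), and was lowest in the beta-titled group (1.37). The order was not strict, since beta-titled replicate 33, with an SD of 1.42, had a members' level of −0.114. After quantile normalization the members' level ran from −0.044 to 0.049 over the 20 arrays.

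**Figure D4:**
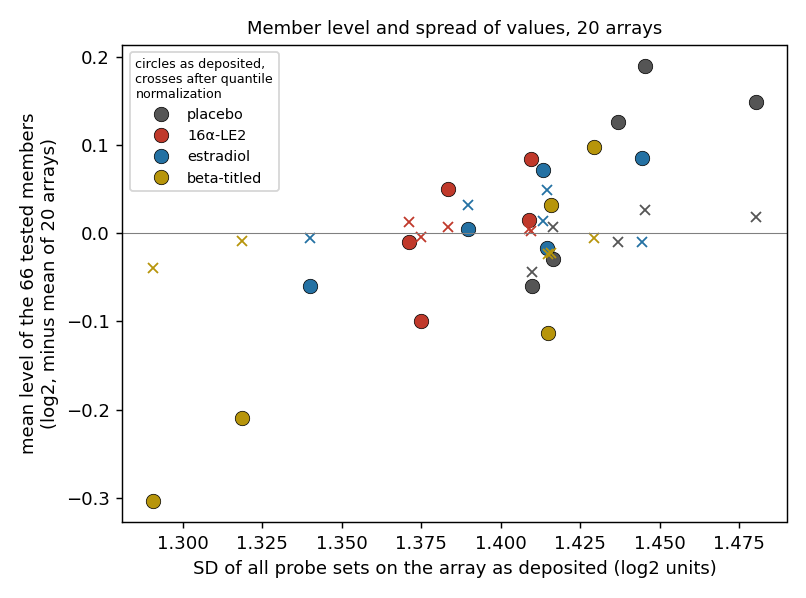
Mean level of the 66 tested members on each array (vertical axis, log2, relative to the mean of 20 arrays) against the SD of all probe sets without controls on that array as deposited (horizontal axis, log2 units), coloured by group. Circles are deposited values, from −0.303 to 0.189, and crosses are values after quantile normalization, from −0.044 to 0.049.

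Other genes high on the scale also had negative medians against placebo. In the beta-titled group, 271 other genes with a mean of 12 or more had a median change of −0.179 and 97.4% were negative, beside −0.183 and 100% for the 51 members at that level. Of those members 23 (45.1%) were lower at an unadjusted p under 0.05, and of the other genes 67 (24.7%), and after quantile normalization 0 and 2 were. With 16α-LE2 their median was −0.075 against −0.068 for the members, and with estradiol −0.079 against −0.055. Of genes under 8, the median was 0.019 in the beta-titled group and 0.011 with 16α-LE2. After quantile normalization the medians of the 271 genes were −0.0039, −0.0012 and 0.0011 in the beta-titled, 16α-LE2 and estradiol groups. The method itself largely sets medians near 0 at the top of the scale, so these values do not show where the offset came from. The difference between members and other genes of that level was not tested.

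**Figure D5:**
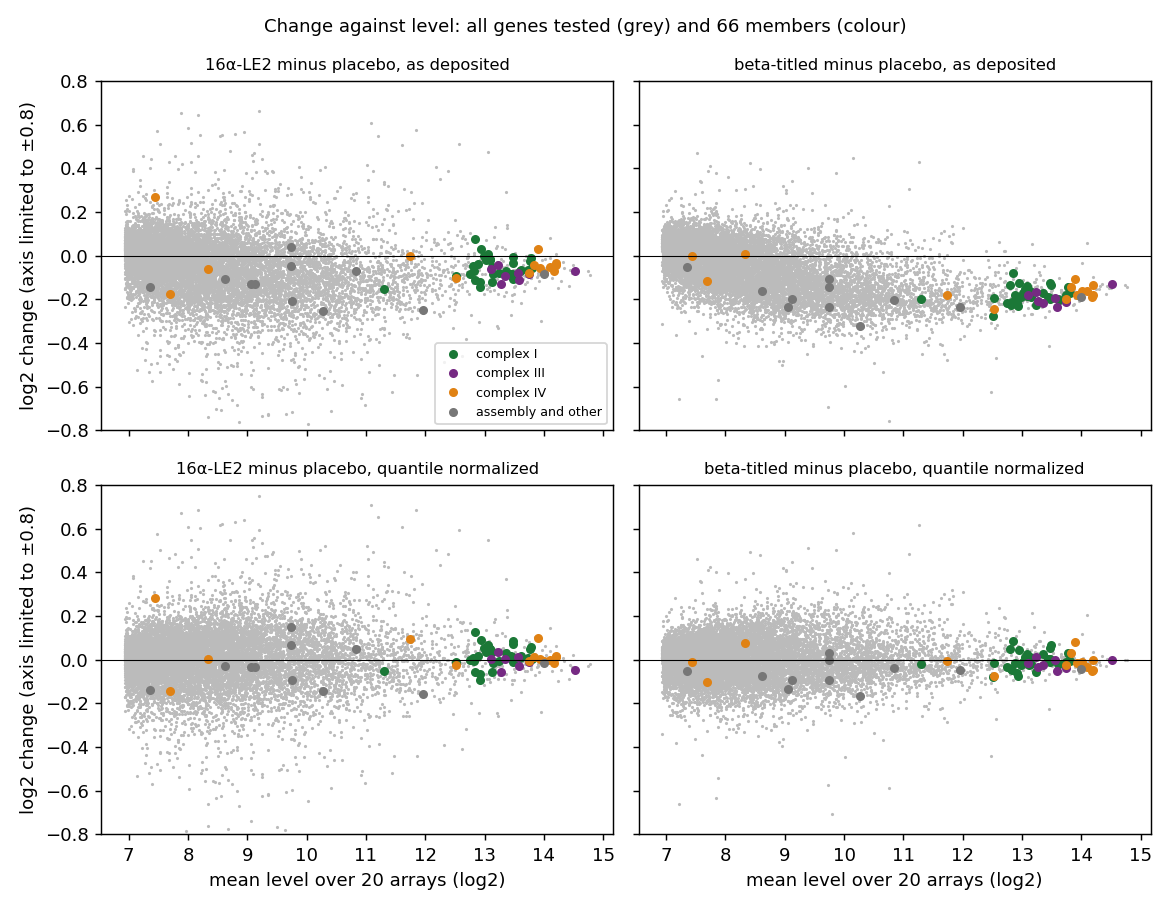
Log2 change against placebo (vertical axis, limited to 0.8 either way) against mean level over 20 arrays (horizontal axis, log2) for 12082 genes (grey) and 66 members (colour), for 16α-LE2 and the beta-titled group, as deposited and after quantile normalization. In the deposited values genes of 12 and over, members included, lie below 0 in the beta-titled group, 97.8% of them, and after quantile normalization 57.1%.

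Against the beta-titled arrays, both agonist groups stood higher. With 16α-LE2, 62 of 66 members were positive with a median of 0.115, and with estradiol 61 were positive with a median of 0.123, where all genes had medians of 0.0036 and 0.024 and 48.1% and 40.6% of them were negative. No member passed in either comparison (limma, smallest adjusted p = 0.119 and 0.925 among members), where 0.174% and 0% of all genes were called, and 1 and 8 members had an unadjusted p under 0.05. The 1 member with 16α-LE2 was Cox6b2 (0.27 ± 0.07 SE), where 2.76% of all genes were higher and 2.84% lower at that p. With estradiol the 8 were all higher, where 2.32% of all genes were higher and 1.51% lower, led by Cox6a2 (0.21 ± 0.07 SE) and Cox8a (0.25 ± 0.09 SE). Other genes high on the scale stood higher as well. Of 271 other genes with a mean of 12 or more, 27 were higher at that p with estradiol and 27 with 16α-LE2. Of the 51 members at that level 6 and 0 were. Medians with estradiol were 0.094 for the other genes and 0.137 for those members, and with 16α-LE2 0.102 and 0.121. The difference between them was not tested. After quantile normalization the members' medians were 0.022 and 0.028. Without the 3 arrays of narrowest spread, a setting that leaves out the beta-titled arrays of lowest member level, they were 0.0041 and 0.024. Beta-titled replicate 32 alone moved the complex medians: without it complexes I, III and IV were at 0.068, 0.047 and 0.069 with 16α-LE2, and at 0.059, 0.096 and 0.096 with estradiol.

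Genes of the rest of the chain, from a list set beside the members, also had negative medians in the deposited values. The 4 genes of complex II, which feeds electrons from succinate, had a median of −0.081 with 16α-LE2 and −0.177 in the beta-titled group, and the 17 ATP synthase genes had −0.066 and −0.169. After quantile normalization these medians were −0.012 and 0.0039 for complex II and 0.023 and −0.0011 for ATP synthase. Of 18 tested assembly genes of complexes III and IV, 15 were below placebo with 16α-LE2, as were 59.7% of all genes. Their median was −0.101, and −0.0021 after quantile normalization. None of these genes, nor of the 10 regulators, passed in a comparison with placebo. Cycs, cytochrome c itself, had a change of −0.147 ± 0.101 (SE) with 16α-LE2, and Cyc1, cytochrome c1 of complex III, one of −0.075 ± 0.080.

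Tfam, the regulator which packages and transcribes mitochondrial DNA, had the same sign in all 3 groups, which were compared with the same placebo arrays. It stood at 9.74, 9.47, 9.78, 9.60 and 9.49 in placebo replicates 31, 32, 33, 34 and 36 and at 9.19, 9.28, 9.24, 9.30 and 9.06 in 16α-LE2 replicates 29, 30, 32, 33 and 34. All treated arrays lay below all placebo arrays, where 2.7% of all genes were lower without overlap. The change was −0.40 ± 0.12 (SE; limma adjusted p = 0.176), and −0.30 after quantile normalization (limma adjusted p = 0.208). It passed in 2 of 32 settings, with array weights (limma adjusted p = 0.023) and without the 3 arrays of narrowest spread (0.041). With estradiol it was −0.30 ± 0.12 and in the beta-titled group −0.39 ± 0.12 (SE), neither of which passed (limma adjusted p = 0.499 and 0.707). Ppargc1a, the coactivator of mitochondrial biogenesis, was at −0.12 ± 0.12 with 16α-LE2 and −0.41 ± 0.12 with estradiol (SE; limma adjusted p = 0.853 and 0.499). Esrra, the estrogen-related receptor α, was at −0.0068 and −0.121.

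Among markers of other cells with 16α-LE2, few passed the test. All 10 fibroblast and matrix markers were below placebo (1 called, mean level 9.40 to 9.52 against 9.60 to 10.19). Of 10 endothelial markers 9 were below it (none called, 9.02 to 9.47 against 9.36 to 9.62). All 5 tested red blood cell markers were above it (1 called). The mean level of the 6 red blood cell markers on the array, tested or not, was 8.01 to 8.85 against 7.69 to 8.03. Of 6 smooth muscle markers 3 were below placebo, and of 9 macrophage markers 2 were, with none called in either list. The cardiomyocyte markers, 7 of 9 below placebo with none called, ran from 14.08 to 14.18 against 13.97 to 14.31. Over all genes 59.7% were below placebo and 0.223% were called. The part of these markers in the values of the respiratory chain genes was not tested.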

How the data were processed

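Total RNA of 20 ventricle samples was labelled with biotin from 100 ng and hybridised to Affymetrix mouse arrays, per the labels' protocols. A log2 scale was taken for the deposited values from their range (5.07 to 15.31). Neither the log base nor how the authors summarized and normalized the arrays is given in the sources used here. Of 45101 probe sets, 64 controls were left out, and 34945 had 1 gene symbol, 932 several and 9160 none in the platform annotation. All 69 members were found in the RefSeq gene table (GRCm38.p6). Groups were taken from the titles. One limma 3.58.1 fit in R 4.3.3 covered the 20 arrays (group means, eBayes with an intensity trend), with Benjamini-Hochberg adjustment over all 12082 genes of a comparison and a threshold of 0.05. Members and lists were chosen with earlier results of these data known, so lists are given by counts and medians without a test.

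Genes were named by a rule: members of smallest p (10 in each comparison with placebo, 5 in each other comparison), 15 fixed subunit genes and 5 fixed genes outside the members. Others were named as the ends of a range, for a promoter or as examples of a list. Alternatives covered normalization (quantile, cyclic loess, median), filters, the summary of probe sets, array weights, the intensity trend, the arrays fitted, pooled controls, a block for the replicate number and leaving out each array. Leaving out 3 arrays of narrow spread was added after seeing the data. On simulated data for 16α-LE2 against placebo (12082 genes, 200 changed, 5 runs), 58% of changes of 0.4 log2 units and 96% of changes of 0.8 were recovered, with 3.07% of calls false. The members' changes in that comparison ran from −0.26 to 0.27, and recovery of changes of that size was not simulated. Figures were drawn with matplotlib 3.10.9.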

Additional observations from a re-analysis of the deposited data

Results flagged for a closer look

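Among 41 quantities (the named members that are on the array and the levels of the 3 complexes), each in 4 groups of 5 arrays, 7 of 164 groups had 1 array far from the other 4, where chance gives about 1 in 20. Placebo replicate 32 stood high for Uqcrc1, at 13.26 against 13.12 to 13.14, and for Cox6b2, at 7.47 against 7.32 to 7.34. Estradiol replicate 33 stood low for Cox4i2, at 6.17 against 6.83 to 6.95, and for Ndufaf4, at 10.01 against 10.28 to 10.38. Replicate 34 of 16α-LE2 stood high for Cox4i2, at 6.98 against 6.83 to 6.87, and replicate 29 stood low for Ndufs4, at 12.35 against 12.59 to 12.65. Beta-titled replicate 35 stood high for Cox8a, at 11.87 against 11.47 to 11.57. Cox4i2 lay below the expression filter.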

How the results depend on the processing

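The number of members called was 0 in all 6 comparisons and stayed 0 in most settings. With 16α-LE2 against placebo it was 1 with array weights, with placebo and beta-titled arrays pooled, and without estradiol replicate 33 (0 to 1 over fits that each left out 1 array), and with 16α-LE2 against the beta-titled group it was 1 with array weights. That member was Cox6b2 each time. Of the medians of the complexes, those named next moved by more than the spread between replicates, and the others did not under the settings run. After quantile normalization, beta-titled minus placebo was −0.012 for complex I, −0.021 for complex III and −0.012 for complex IV, and complex IV was 0.018 for 16α-LE2 and 0.040 for estradiol against the beta-titled group. With cyclic loess, beta-titled minus placebo was 0.018, 0.0089 and 0.038 for complexes I, III and IV, estradiol minus placebo was 0.054, 0.069 and 0.085, and complex IV was 0.043 for 16α-LE2 minus placebo and 0.0018 for 16α-LE2 minus the beta-titled group. With pooled controls, complex IV was 0.029 with 16α-LE2 and 0.068 with estradiol, and complex III 0.052 with estradiol. Without the 3 arrays of narrowest spread, complex IV was 0.040 for estradiol minus the beta-titled group. The normalization used by the authors is unknown, so the direction of the complex medians is not settled. Equal replicate numbers gave no sign of pairing. Deviations of same-numbered arrays correlated above 0.1 in 6 of 17 pairs, beside 44 of 133 pairs with other numbers. Of 20 samples, 3 correlated best with their own number. With the number as a replicate block, 0 members passed in each comparison and the complex I median for 16α-LE2 minus placebo was −0.042.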

Other observations

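With the arrays put on 1 distribution, estradiol minus placebo was slightly positive in some parts of the chain and negative in others, though no member passed. After quantile normalization 5 of 6 core subunits of complex I were above placebo (median 0.094), Ndufaf3 was at 0.26, Cox8a at 0.199 and Cox6a2 at 0.168 (limma adjusted p = 0.547 for these 3). Other members were below placebo, among them Cox7c at −0.173, Ndufaf6 at −0.154, Ndufaf4 at −0.094 and Ndufs4 at −0.094. Of 51 members with a mean of 12 or more, 21 (41.2%) were below placebo, beside 49.1% of 271 other genes at that level. The medians were 0.017 for those members and 0.0011 for the other genes. The members' mean level was then 0.049 and 0.032 in estradiol replicates 34 and 35. It was 0.013, −0.010 and −0.0056 in estradiol replicates 29, 30 and 33, and placebo arrays ran from −0.044 to 0.026. With cyclic loess 50 of 66 members were above placebo with estradiol, 49 with 16α-LE2 and 42 in the beta-titled group, with medians of 0.056, 0.028 and 0.017. The share of all genes above placebo under cyclic loess is not given here, so these counts do not show a trait of the members.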
